A study of Mus musculus with 12 samples.

Results

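The genes described here are those that the deposited RNA-seq tables of mouse cumulus cells list in every library given FSH and FBS and in no untreated library. A gene counted as listed in a library when at least 1 first-exon or last-exon event on its main strand had a value there. Of 13318 genes listed in any library, 139 met this rule, and they make up 1.39% of the 9986 genes listed in all 3 FSH and FBS libraries. The genes were thus selected on measured values, their listing in the 6 libraries, and this contrast between the groups is described here without a test. The opposite rule, listing in all 3 untreated libraries and in no FSH and FBS library, found 150 genes, 1.5% of 10031. One-sided listing thus had a like share in both directions.

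RNA was sequenced from cumulus cells of mice of the Kunming strain, which the labels also describe as granulosa cells of antral follicles. The tested group received FSH and FBS together over 18 hours (3 libraries), and the other group is labelled untreated (3 libraries, with no culture time). FSH is the follicle-stimulating gonadotropin and FBS is fetal bovine serum, so the 2 agents cannot be told apart from each other, nor from a difference in time in culture. The series concerns cumulus expansion and cumulus cell apoptosis, and its text also describes complexes from which the oocyte was taken out. Whether the untreated cells came from such complexes is not said in the labels.

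Cumulus cells surround the oocyte, and a gonadotropin signal passed on through cyclic AMP and EGF-like factors makes them secrete a hyaluronan-rich matrix, the process called expansion. In the same hours they shift towards the steroid-making, luteal state and release prostaglandins, cytokines and proteases that act on the follicle wall. Genes that are silent or close to silent in resting cumulus cells and switched on during ovulation are therefore well known in this tissue, and peptide hormones, prostaglandin receptors and matrix enzymes are among them.

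Values are FPKM, fragment counts scaled for transcript length and for mapped reads, so levels can be set side by side between genes. Each gene was given, per library, the larger of 2 sums, that of its first-exon FPKM and that of its last-exon FPKM. The tables list no event at 0, the depth is unknown, and an unlisted gene is therefore not shown to be absent. The libraries listed 10475 to 11398 genes after FSH and FBS and 10786 to 11552 genes in untreated cells. Over the 9022 genes with a value in every library and a mean no lower than 1 FPKM, libraries 1 and 2 differed more than 2-fold at 2.82% of genes in the FSH and FBS group and at 4.54% in the untreated group. Library 3 differed that much from libraries 1 and 2 at 22.5% and 22.9% of genes after FSH and FBS and at 15.9% and 16.3% in untreated cells. Nothing in the labels says that the libraries came from separate cultures or animals. Untreated library 2 stood apart in a further way. It carries event numbers that matched the position of the same number in FSH and FBS library 1 in 0.0707% of cases, against 100% in each other library. It also listed 455 genes that no other library had, 141 of them at 5 FPKM or more, against 135 to 213 such genes, 1 to 5 of them at that level, in each other library. Without untreated library 2 the rule found 180 genes, and without untreated libraries 1 and 3 it found 186 and 175.

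Among the 139 genes, RefSeq classed 120 as protein coding, 9 as long non-coding RNA and 2 as pseudogenes, and 7 had no match by name. Chromosome 11 held the most (15 of its 857 genes listed in all 3 FSH and FBS libraries, 1.75%), chromosome 16 had the highest share (8 of 316, 2.53%), and chromosome 13 held none of 351. The closest neighbours were Gm15767 and Pthlh on chromosome 6, 8308 bases apart, and Pycr1 and Notum on chromosome 11, 10019 bases apart.

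RefSeq (GRCm38.p6) gave a promoter, 250 bases before to 50 bases after the start, for 91 of the 139 genes. The files name no genome build, but among 80 of these genes with a listed first exon its start lay within 50 bases of the RefSeq start in 42 and within 500 bases in 61. Of 9 short motifs searched on both strands, TGATGCAA, a composite element bound by ATF4 and C/EBP proteins, was held by 3 of 91 promoters (3.30%), against 0.895% of all 32851 promoters of the same length. The 3 promoters, printed 5′ to 3′ on the gene's strand with the motif or its complement in capitals, belong to Pycr1 (chr11:120643699-120643998, minus strand), Sfxn4 (chr19:60861379-60861678, minus strand) and Angptl8 (chr9:21835260-21835559, plus strand). They are shown because Pycr1 makes proline and Sfxn4 sits in the mitochondrial membrane.
Pycr1: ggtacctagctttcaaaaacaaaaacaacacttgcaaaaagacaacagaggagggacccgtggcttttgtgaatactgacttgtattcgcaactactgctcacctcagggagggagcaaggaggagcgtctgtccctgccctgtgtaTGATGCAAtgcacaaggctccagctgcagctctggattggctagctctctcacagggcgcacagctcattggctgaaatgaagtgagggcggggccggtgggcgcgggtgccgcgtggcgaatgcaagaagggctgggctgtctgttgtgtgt
Sfxn4: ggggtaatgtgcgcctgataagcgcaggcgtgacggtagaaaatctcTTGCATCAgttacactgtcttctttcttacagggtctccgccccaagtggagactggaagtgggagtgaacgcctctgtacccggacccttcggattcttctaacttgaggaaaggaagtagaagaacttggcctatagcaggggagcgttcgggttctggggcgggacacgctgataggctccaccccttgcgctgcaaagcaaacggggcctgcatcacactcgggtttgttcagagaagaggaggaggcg
Angptl8: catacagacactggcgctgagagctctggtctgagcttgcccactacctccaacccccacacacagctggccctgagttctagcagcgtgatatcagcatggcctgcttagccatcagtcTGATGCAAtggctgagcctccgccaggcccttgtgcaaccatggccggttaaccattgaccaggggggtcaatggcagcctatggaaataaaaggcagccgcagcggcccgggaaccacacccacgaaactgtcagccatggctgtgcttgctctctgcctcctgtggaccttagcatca
The match began 103 bases before the start in Pycr1, 203 in Sfxn4 and 130 in Angptl8. The listed first exon began at the RefSeq start in Pycr1, 4 bases from it in Sfxn4 and 694 bases from it in Angptl8, so the Angptl8 window may not be the one in use.

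AAGGTCA, the site bound by the steroidogenic factor SF1, was held by 7 of 91 promoters (7.69%), against 4.72% of all. The promoters of Akr1b7 (chr6:34412112-34412411, plus strand) and Sult1e1 (chr5:87591562-87591861, minus strand) are shown because both enzymes handle steroid products; the capitals mark that site as read on the gene's strand.
Akr1b7: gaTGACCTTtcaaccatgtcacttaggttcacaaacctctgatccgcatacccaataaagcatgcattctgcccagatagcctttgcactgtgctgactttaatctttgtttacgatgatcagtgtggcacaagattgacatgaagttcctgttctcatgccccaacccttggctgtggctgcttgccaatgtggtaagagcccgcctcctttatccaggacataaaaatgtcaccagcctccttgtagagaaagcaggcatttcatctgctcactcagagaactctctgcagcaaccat
Sult1e1: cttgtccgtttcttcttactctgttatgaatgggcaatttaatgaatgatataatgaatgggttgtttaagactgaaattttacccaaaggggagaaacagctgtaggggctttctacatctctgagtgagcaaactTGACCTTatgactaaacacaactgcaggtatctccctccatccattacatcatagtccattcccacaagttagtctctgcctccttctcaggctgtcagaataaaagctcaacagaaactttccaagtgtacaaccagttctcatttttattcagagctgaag
In Akr1b7 the match began 248 bases before the start, and the listed first exon began 28 bases from the RefSeq start. In Sult1e1 the match began 113 bases before the start, and only a last exon was listed. The other motifs were TGACGTCA, the cyclic AMP response element, in 1 promoter (Neurl1a, 1.10%, against 1.79% of all), TGANTCA, the AP-1 site, in 6 (6.59%, against 7.81%), TATAAA, the TATA box, in 11 (12.1%, against 13.6%) and CACGTG, the E-box, in 5 (5.49%, against 7.15%). The listed first exon of Neurl1a began 49974 bases from the RefSeq start, so its window may not be the one in use. TGTGGT, the RUNX core, was held by 15 (16.5%, against 16.8%), TCACNCCAC, a sterol response element, by 1 (1.10%, against 1.24%) and GGGCGG, the GC box, by 48 (52.7%, against 35.7%). The background of 32851 promoters covered 27025 genes, whether or not these libraries listed them. No share was taken over the promoters of listed genes alone. Whether the gaps at GGGCGG, TGATGCAA and AAGGTCA belong to the chosen genes or to listed genes in general was not tested. A match describes letters only and is no evidence of binding.

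The 139 genes were low. Their value in the lowest of the 3 FSH and FBS libraries had a median of 0.578 FPKM (range 0.0053 to 7.99), against 7.48 FPKM for all 9986 genes listed in those 3 libraries. That lowest value was under 1 FPKM in 98 genes (70.5%), against 11.2% of all 9986. In every FSH and FBS library, 41 of the 139 reached 1 FPKM, 21 reached 2 FPKM and 2 reached 5 FPKM. In 46 genes no library exceeded 1 FPKM.

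The share of genes listed on one side only fell off with level, in both directions. With at least 1 FPKM asked of every library, 41 genes were listed only after FSH and FBS (0.462% of the genes at that level) and 46 only in untreated cells (0.521%). At 2 FPKM, 21 genes were listed only after FSH and FBS (0.261%), against 22 only in untreated cells (0.279%), and at 5 FPKM the counts were 2 after FSH and FBS (0.0325%), against 10 in untreated cells (0.174%).

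**Figure D1:**
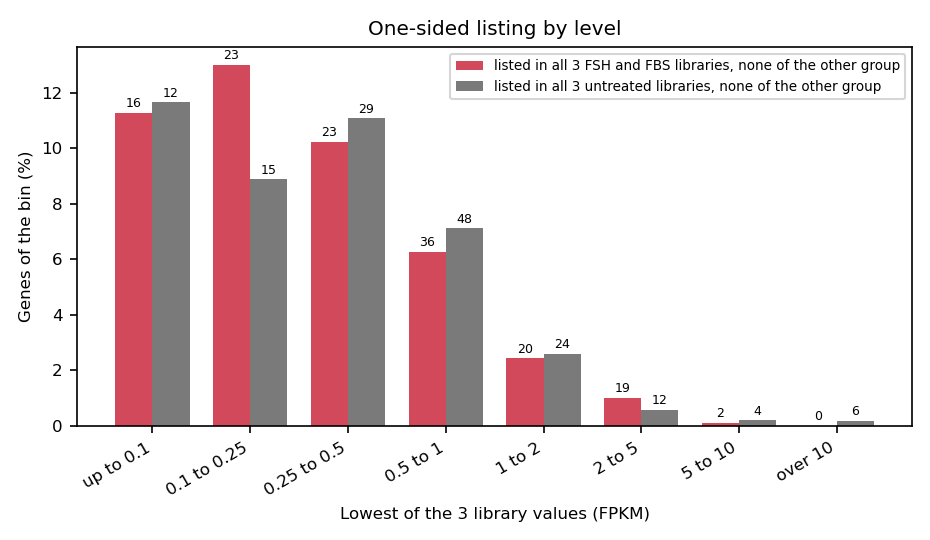
Percent of genes listed in all 3 libraries of a group that no library of the other group lists (vertical axis), by the lowest FPKM of the gene in its own group (horizontal axis), with the number of one-sided genes over each bar. In both directions the share falls with level, and at 5 FPKM or more 2 genes were listed only after FSH and FBS and 10 only in untreated cells.

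The rule asked for listing and not for a level, but it also bears on the spread between FSH and FBS libraries. A gene had to be listed in library 3, which listed the fewest genes, and 131 genes missed the rule through library 3 alone, against 33 and 36 through libraries 1 and 2. The highest library exceeded the lowest by a median of 2.13-fold, and by more than 10-fold in 15 genes. Libraries 1 and 2, which were close at most genes, differed more than 2-fold in 37 of the 139 (26.6%), against 3.37% of the 9237 genes listed in all 6 libraries, which were mostly of far higher level. Library 3 was the highest in 86 genes (61.9%), against 43.9% of the genes listed in all 6 libraries. Its value was a median of 1.45 times the mean of libraries 1 and 2, against 0.981 times over the genes listed in all 6. Among genes whose mean in libraries 1 and 2 was at most 2 FPKM, 113 of the 139 and 783 of the genes listed in all 6 libraries, the gaps were narrower. Library 3 was then the highest in 63.7% of the 113, against 51.9% of the 783, the median ratio was 1.49, against 1.18, and libraries 1 and 2 differed more than 2-fold in 31.9%, against 15.8%. These are descriptions, since the rule had removed genes not listed in library 3. The summed first-exon FPKM of that library was also higher, 362638 against 261541 and 259535 in libraries 1 and 2, and the part of this difference in the ratio was not tested.

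**Figure D2:**
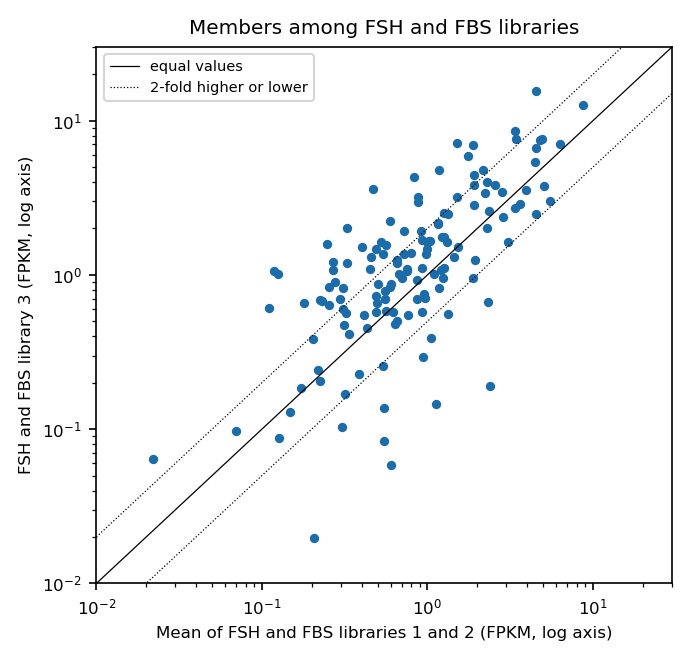
FPKM of each of the 139 genes in FSH and FBS library 3 (vertical, log axis) against the mean of FSH and FBS libraries 1 and 2 (horizontal, log axis). Library 3 was the highest of the 3 libraries in 86 of the genes, and the points spread most at low values.

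Peptide hormones, cytokines and their antagonists were the largest group that could be placed by role, with 15 genes, of which 6 reached 1 FPKM in every FSH and FBS library. Role groups were drawn up after the names of the genes were known. Ccn4, a secreted matricellular protein of the WNT1-inducible family, had 4.85, 4.23 and 2.50 FPKM in FSH and FBS libraries 1 to 3, with no listed value in any untreated library. Il23a, the p19 subunit of interleukin 23, had 2.23, 2.24 and 3.42 FPKM after FSH and FBS and was unlisted in untreated cells. Chrd, which encodes chordin, an antagonist that binds BMP ligands outside the cell, had 2.33, 2.22 and 2.03 FPKM after FSH and FBS and was unlisted in untreated cells. In these 3 genes the FSH and FBS libraries lay within 2-fold of each other. Lgi3, a secreted leucine-rich repeat protein, had 2.27, 1.53 and 3.85 FPKM after FSH and FBS. Pthlh, the parathyroid hormone-like peptide, had 1.41, 1.25 and 2.48 FPKM, and Wnt7b, a WNT ligand, had 1.30, 1.10 and 1.07 FPKM after FSH and FBS; none of these was listed in untreated cells. Wnt7b varied by less than 1.5-fold among the FSH and FBS libraries, and library 3 was the highest for Lgi3 and Pthlh.

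Lower signals followed. Edn2, endothelin 2, a peptide that contracts the follicle wall at ovulation, had 0.441, 0.366 and 1.53 FPKM after FSH and FBS. Library 3 carried the Edn2 value, at more than 3 times the other libraries, and the gene was unlisted in untreated cells. Adcyap1, which encodes the peptide PACAP, known from ovulatory follicles, had 0.248, 0.374 and 0.470 FPKM, and Tac2, which encodes neurokinin B, had 0.966, 0.228 and 0.832 FPKM after FSH and FBS. Tslp, a cytokine related to interleukin 7, had 0.397, 0.111 and 0.642 FPKM, and Notum, an enzyme that inactivates WNT ligands, had 0.404, 0.0879 and 1.59 FPKM after FSH and FBS. The FSH and FBS libraries differed more than 3-fold for Tac2, Tslp and Notum. Angptl8, a secreted regulator of lipoprotein lipase, had 1.43, 0.618 and 1.66 FPKM after FSH and FBS.

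Receptors and membrane-bound ligands numbered 13, and 1 of them, Milr1, reached 1 FPKM in every FSH and FBS library. Ptgfr, the receptor of prostaglandin F2 alpha, which ends the life of the corpus luteum in rodents, had 1.39, 1.28 and 0.560 FPKM after FSH and FBS. Lepr, the leptin receptor, had 0.655, 0.428 and 0.257 FPKM after FSH and FBS. Library 3 was the lowest in both of these receptors, unlike most of the 139 genes, and neither was listed in untreated cells. Milr1, an inhibitory receptor of mast cells, had 1.23, 1.07 and 2.16 FPKM after FSH and FBS; it overlaps Polg2 on the other strand, which untreated cells do list.

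Kinases, phosphatases and regulators of small GTPases numbered 11, of which 5 reached 1 FPKM throughout. Prkg2, the membrane-bound cyclic GMP-dependent kinase, had 4.66, 5.11 and 7.64 FPKM after FSH and FBS. Fam20a, a pseudokinase that supports the secretory-pathway kinase Fam20c, had 4.62, 4.47 and 6.68 FPKM, and Inpp5j, an inositol 5-phosphatase, had 3.26, 3.99 and 2.88 FPKM after FSH and FBS. Fmnl1, a formin that builds actin filaments, had 1.24, 1.21 and 1.77 FPKM after FSH and FBS. All 4 stayed within 2-fold between FSH and FBS libraries. Inpp5j had no first or last exon in untreated cells but an alternative exon end at 0.530 FPKM in untreated library 1 and 1.11 FPKM in untreated library 3. It was thus not without signal there. Rgs1, which speeds the shut-off of G proteins, had 0.120, 0.224 and 0.185 FPKM after FSH and FBS.

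Matrix proteins and extracellular enzymes numbered 12, of which 3 reached 1 FPKM throughout. Hpse, heparanase, which cuts heparan sulfate chains, had 5.13, 4.98 and 3.79 FPKM after FSH and FBS. Mfap5, a microfibril protein, had 3.99, 2.76 and 2.73 FPKM, and Pcolce2, an enhancer of procollagen processing, had 1.65, 2.17 and 2.84 FPKM after FSH and FBS. None was listed in untreated cells, and the FSH and FBS libraries lay within 2-fold for each.

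Enzymes of metabolism and detoxification numbered 13, of which 5 reached 1 FPKM throughout. Pycr1, which makes the last step of proline synthesis in mitochondria, had 4.32, 3.51 and 3.57 FPKM after FSH and FBS. Cox6a2, a cytochrome c oxidase subunit best known from heart and skeletal muscle, had 2.80, 2.83 and 3.45 FPKM, and Osgin1, an oxidative stress-induced growth inhibitor, had 2.28, 2.29 and 4.02 FPKM after FSH and FBS. Libraries 1 and 2 were close in Cox6a2 and Osgin1, and no untreated library listed a first or last exon of these genes. Gsta2, a glutathione transferase, had 1.48, 1.55 and 7.16 FPKM, and Vnn3, a vanin, had 1.44, 2.37 and 4.43 FPKM after FSH and FBS. Sult1e1, the sulfotransferase that inactivates estrogens, had 0.751, 0.908 and 4.28 FPKM, and Arg2, mitochondrial arginase, had 0.922, 0.838 and 3.20 FPKM after FSH and FBS. In these 4 genes library 3 was the highest, at more than 4 times library 1 in Gsta2 and Sult1e1. Akr1b7, an aldose reductase family member of steroid-making glands, went the other way, with 1.61, 0.651 and 0.146 FPKM after FSH and FBS. Sfxn4, a sideroflexin of the mitochondrial membrane, had 0.623, 0.819 and 1.92 FPKM after FSH and FBS, and untreated library 1 held a skipped-exon event of it at 0.583 FPKM.

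Channels, pumps and carriers numbered 7. Pkd1l2, a polycystin 1-like membrane protein, had 7.99, 9.38 and 12.5 FPKM after FSH and FBS, the highest lowest-library value of the 139 genes. It was unlisted in all untreated libraries and varied by less than 2-fold among the FSH and FBS libraries. Cftr, the chloride channel mutated in cystic fibrosis, had 0.409, 1.32 and 0.698 FPKM after FSH and FBS.

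Junction and cytoskeleton genes numbered 9, of which 4 reached 1 FPKM throughout. Flnc, filamin C, an actin cross-linker, had 4.69, 4.90 and 7.54 FPKM, and Dsg2, a cadherin of desmosomes, had 5.48, 5.58 and 3.01 FPKM after FSH and FBS. Mall, a proteolipid of lipid rafts, had 3.62, 3.21 and 7.65 FPKM after FSH and FBS. Cdh5, the cadherin of endothelial junctions, had 2.06, 2.63 and 2.58 FPKM after FSH and FBS. Library 3 was the lowest of the group for Dsg2 and the highest for Flnc and Mall. Cdh5 carried most of the endothelial marker sum after FSH and FBS. Of 10 endothelial markers, each FSH and FBS library listed 2, with sums of 3.37, 2.81 and 2.70 FPKM, and the untreated libraries listed 1, 3 and 1, with sums of 0.0224, 0.515 and 0.984 FPKM. Kdr, Tek, Tie1, Cldn5, Emcn and Egfl7 were listed in no library.

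Vesicle and calcium-sensing genes numbered 6, of which 3 reached 1 FPKM throughout. Cabp1, a neuronal calcium-binding protein, had 1.57, 1.95 and 5.86 FPKM, and Jakmip3 had 2.91, 3.21 and 1.64 FPKM after FSH and FBS. Transcription factors numbered 5, and the one that reached 1 FPKM in every FSH and FBS library was Rfx2, a winged-helix factor of ciliated cells, with 1.35, 1.70 and 1.52 FPKM after FSH and FBS. Ciart, a repressor within the circadian clock, had 2.20, 2.57 and 0.190 FPKM after FSH and FBS. Libraries 1 and 2 held Ciart at more than 10 times the level of library 3.

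A further 48 genes were placed in no role group, 23 of all 139 having only predicted or RIKEN names. Usp43, a ubiquitin-specific protease, had 6.33, 6.27 and 7.03 FPKM after FSH and FBS, and varied least of the 21 genes at 2 FPKM or more. It overlaps 9130017K11Rik on the other strand, listed in untreated cells, and untreated library 1 held an alternative exon end of Usp43 itself at 0.597 FPKM. Eva1c, a membrane protein known in worms as a receptor of the guidance cue Slit, had 1.98, 1.77 and 6.91 FPKM, and Neurl1a, an E3 ubiquitin ligase, had 1.94, 3.18 and 3.84 FPKM after FSH and FBS. Bspry, a B-box and SPRY domain protein, had 1.73, 2.61 and 4.76 FPKM after FSH and FBS. In these 3 genes library 3 was the highest. The highest unplaced pseudogene was Gm9260, with 5.45, 3.59 and 15.5 FPKM after FSH and FBS, which may share reads with its parent gene.

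**Figure D3:**
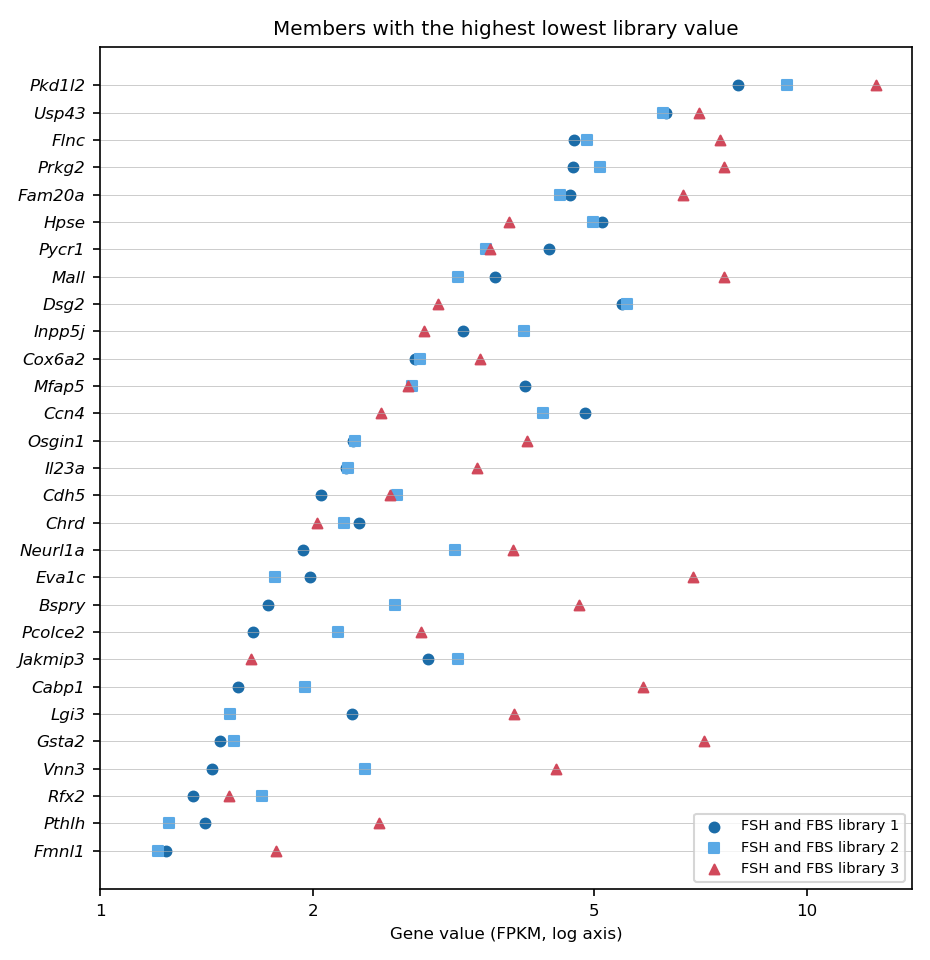
FPKM (log axis) in each of the 3 FSH and FBS libraries for the reported genes among the 30 with the highest lowest-library value, ordered by that value. Pkd1l2 stands at the top with 7.99 to 12.5 FPKM, and all genes shown lack a first- or last-exon value in the 3 untreated libraries.

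Genes on either side of the edge of the rule are given here. The lowest 5 members were Faah (0.0199, 0.426 and 0.683 FPKM after FSH and FBS), D430041D05Rik (0.391, 0.0204 and 0.0198), Elf3 (0.0193, 0.217 and 1.06), Shc2 (0.0072, 0.351 and 0.654) and Trdc (0.0053, 0.0385 and 0.0636). Faah degrades the lipid signal anandamide, Elf3 is an epithelial transcription factor and Trdc is the constant segment of the T-cell receptor delta chain. Just outside stood 124 genes listed in all 3 FSH and FBS libraries and in 1 untreated library, and in 67 of them the lowest FSH and FBS value exceeded that untreated value. The 5 named below had the highest lowest FSH and FBS value of the 124, and are not typical of them. Pdcd1, the PD-1 receptor, had 39.3, 40.8 and 42.5 FPKM after FSH and FBS and 0.286 FPKM in untreated library 2 alone. Cxcl14, a chemokine, had 37.7, 37.6 and 55.0 FPKM after FSH and FBS and 0.416 FPKM in untreated library 2. Stc2, stanniocalcin 2, had 28.7, 28.7 and 13.6 FPKM after FSH and FBS and 0.168 FPKM in untreated library 1. The lowest FSH and FBS value of each of these 3 genes exceeded that of all 139 members, and a single low untreated value kept each out. Gm4617 (147.0, 72.4 and 78.3 FPKM after FSH and FBS, 113.7 in untreated library 1) and Rpl41 (52.3, 203.4 and 1615 after FSH and FBS, 760.2 in untreated library 3) overlapped between the groups.

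Listing by first or last exon was not the whole signal of a gene. In 8 of the 139, other events appeared in an untreated library, namely Gm14027, Inpp5j, Usp43, Sfxn4, Sema4a, Wnk4, Elf3 and Osgin1, and the other 131 had no event of any type there. Osgin1 had events at 1.04 FPKM in untreated library 3, and Elf3 had an alternative exon end at 0.656 FPKM there. In 8 genes, Arg2 and Usp43 among them, the position overlapped a gene on the other strand that untreated cells listed, and none overlapped a listed gene on the same strand. Whether reads were assigned by strand is not given in the sources used here.

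Relatives of these genes in the same pathways were followed through a list of 48 partners, drawn up after the names of the 139 were known. Of the 48, 23 were listed in all 6 libraries and 15 in none. Where a partner was listed in all 6, limma was run on log2(FPKM + 1) over all 9022 such genes with a mean of at least 1 FPKM, with libraries 1 and 2 averaged as 1 sample (n = 2 per group), and 152 genes (1.68%) were called higher and 62 (0.687%) lower at an adjusted p under 0.05. The median log2 fold change over all tested genes was 0.24. Scaling by the median of ratios left 50 higher and 41 lower with a median of 0.0050, and scaling to equal sums 59 and 45. With unlisted genes taken as 0 and all 13318 genes fitted, limma called none in either direction, although 1222 higher and 617 lower genes had an unadjusted p under 0.05.

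Among endothelin genes, Edn1 could be tested. Edn1, the sister peptide of Edn2, had 0.321, 0.699 and 0.484 FPKM after FSH and FBS, against 37.7, 36.4 and 18.1 FPKM in untreated cells. It fell, with a log2 fold change of -4.17 (SE 0.43, limma adjusted p = 0.0053, with all 3 FSH and FBS libraries below all untreated ones). The share of all tested genes whose groups do not overlap was not counted. Such separation, here and below, is therefore only a description. No direction is read for Edn2, whose listing chose it. The receptor Ednra had a log2 fold change of -0.76 (adjusted p = 0.43) and the converting enzyme Ece1 one of 0.73 (adjusted p = 0.57); Ece2 had 0.93 (adjusted p = 0.29, and 0.037 with the replicate block). Ednrb was listed only in untreated library 2, at 0.442 FPKM.

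In the CCN family 1 of 3 tested genes was called lower and none higher, against 0.687% lower and 1.68% higher of all genes tested. Ccn2, connective tissue growth factor, had 1.05, 1.33 and 3.53 FPKM after FSH and FBS, against 334.3, 334.6 and 184.9 FPKM in untreated cells. It fell by 6.31 on the log2 scale (SE 0.47, limma adjusted p = 0.0029). Ccn4 was chosen by its listing and not tested, and Ccn1 and Ccn5 had log2 fold changes of 0.52 and 0.95 that did not pass (adjusted p = 0.53 and 0.37). Of the chordin ligands on the partner list, Bmp2 had no value in any FSH and FBS library, against 69.9, 77.8 and 43.2 FPKM in untreated cells. Bmp4 and Bmp7 were listed in no library. Bmp6, a BMP ligand outside the partner list, went the other way. It had 28.1, 28.3 and 21.0 FPKM after FSH and FBS, against 8.06, 5.63 and 2.69 FPKM in untreated cells. Of the proteases that cut chordin, Bmp1 was listed in untreated library 2 alone, at 42.9 FPKM, and Tll1 in no library.

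Of 3 carriers of heparan sulfate, on which heparanase acts, 2 were called higher, against 1.68% of all genes tested. No direction is read for Hpse, whose listing chose it. Sdc1, syndecan 1, had 962, 916 and 1081 FPKM after FSH and FBS, against 74.7, 72.7 and 61.8 FPKM in untreated cells (log2 fold change 3.88, SE 0.42, limma adjusted p = 0.0062). Gpc1, glypican 1, had 22.8, 25.7 and 30.01 FPKM after FSH and FBS, against 3.46, 4.68 and 3.10 FPKM in untreated cells (log2 fold change 2.62, SE 0.36, limma adjusted p = 0.011). In both genes all FSH and FBS libraries lay above all untreated ones, a description without the share over all genes tested. Sdc4, syndecan 4, had a log2 fold change of 0.61 (adjusted p = 0.62), and of -0.12 without FSH and FBS library 3. Without untreated library 3 neither call held, the adjusted p being 0.11 for Sdc1 and 0.051 for Gpc1; over all alternatives it ran from 2.55e-07 to 0.106 for Sdc1 and from 3.24e-05 to 0.106 for Gpc1, which was 0.053 after scaling to equal sums.

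Around Pycr1, the enzyme one step earlier in proline synthesis, Aldh18a1, had 32.1, 28.3 and 19.5 FPKM after FSH and FBS, against 7.93, 10.6 and 6.30 FPKM in untreated cells. The groups did not overlap, a description without the share over all genes tested. The log2 fold change of 1.55 (SE 0.39) did not pass (limma adjusted p = 0.095, and 0.0019 with the replicate block). The sister enzyme Pycrl had a log2 fold change of 0.60 (adjusted p = 0.49), and Prodh, which breaks proline down, had 0.20 (adjusted p = 0.84), which turned to -0.027 after scaling by the median of ratios and -0.061 after scaling to equal sums. Around Arg2, Odc1, which makes polyamines from ornithine, had a log2 fold change of 1.29 (adjusted p = 0.18, and 0.043 with the block) and Oat one of 0.94 (adjusted p = 0.22). Arg1 was listed in FSH and FBS library 3 alone, at 0.492 FPKM.

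**Figure D4:**
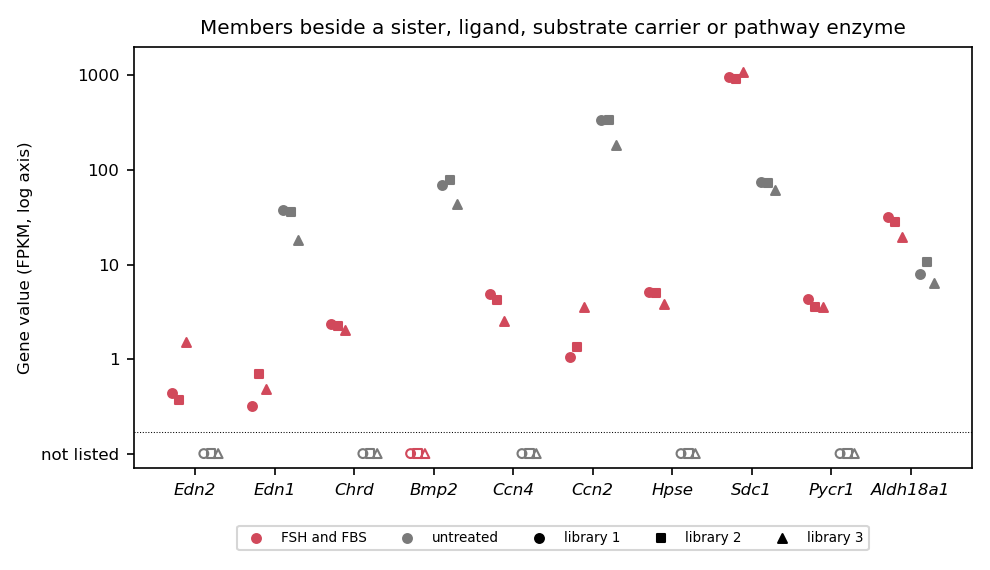
FPKM (log axis) of 5 member and partner pairs in each library, FSH and FBS left of untreated. Open symbols mark libraries in which a gene is not listed. The members Edn2, Ccn4, Chrd, Hpse and Pycr1 are unlisted in untreated cells by the rule that chose them. The pairs were picked from a partner list drawn up after the names of the members were known. Of the partners, Edn1, Ccn2 and Bmp2 were high in untreated cells, and Sdc1 was higher after FSH and FBS.

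For several peptide signals the matching receptor was unlisted, which does not show that it was absent. The immediate early gene Jun, the cell cycle gene Ccnd1 and the granulosa marker Foxl2 were also listed in no library. Pth1r for Pthlh, Adcyap1r1, Vipr1 and Vipr2 for Adcyap1, Tacr3 for Tac2, Il23r for Il23a and Il7r for Tslp had no value in any of the 6 libraries, and neither had Lep, the ligand of Lepr, or Prkg1, the sister kinase of Prkg2. Il12rb1, the other chain of the interleukin 23 receptor, was listed in FSH and FBS library 3 alone, at 0.790 FPKM. Il12b, the other subunit of interleukin 23, was listed only in untreated library 3, at 1.31 FPKM. Crlf2, the second chain of the Tslp receptor, had 9.81, 9.51 and 15.7 FPKM after FSH and FBS, against 6.23, 4.91 and 5.65 FPKM in untreated cells (log2 fold change 1.01, adjusted p = 0.25, and 0.026 with the replicate block). Tac1, the sister peptide of Tac2, had a log2 fold change of -1.20 (adjusted p = 0.20, and 0.045 with the block). Upstream of Ptgfr, Ptgs2, the inducible prostaglandin synthase, rose by 2.45 on the log2 scale (SE 0.42, limma adjusted p = 0.027), but not without untreated library 3 (adjusted p = 0.20; 0.000316 to 0.2 over all alternatives). Beside Akr1b7, its sister enzyme Akr1b8 had 47.4, 47.9 and 117.2 FPKM after FSH and FBS, against 8.47, 6.90 and 9.72 FPKM in untreated cells (log2 fold change 2.97, SE 0.47, limma adjusted p = 0.020, and 0.077 after scaling by the median of ratios).

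Of 18 pathway lists, 6 held at least 1 of the 139 genes, which were 1.04% of all 13318 genes listed. Over all genes tested, 1.68% were called higher and 0.687% lower, and these shares stand beside every count of calls below. The list of ovulation and luteinization genes (25 genes, with Edn2 and Sult1e1, and with Fabp4 listed only in untreated cells) had 4 of 12 tested genes called higher, Abcb1b, Parm1, Sfrp4 and Timp1, against 1.68% of all genes tested, and none lower. Its median log2 fold change was 0.23, against 0.24 over all genes tested. Their log2 fold changes were 2.87 for Abcb1b, a drug efflux pump, 2.99 for Parm1, 3.55 for Sfrp4, a secreted WNT antagonist, and 3.66 for Timp1, a metalloproteinase inhibitor. Parm1, an androgen-regulated membrane protein, had 54.8, 54.3 and 38.4 FPKM after FSH and FBS, against 4.38, 4.85 and 5.15 FPKM in untreated cells. Collagens, laminins and adhesion genes (30 genes) had 4 of 13 higher, Col18a1, Col6a3, Spp1 and Tnc, and Col27a1 lower, with a median of 1.30. The log2 fold changes were 3.14 for Col6a3, 4.79 for Spp1, which encodes osteopontin, 1.94 for Tnc, tenascin C, and -2.11 for Col27a1. Col18a1, the source of endostatin, had 15.6, 16.8 and 13.9 FPKM after FSH and FBS, against 0.532, 0.733 and 0.620 FPKM in untreated cells (log2 fold change 3.30, SE 0.36, limma adjusted p = 0.0062). In Parm1 and Col18a1 the groups did not overlap, a description without the share over all genes tested.

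The WNT list (29, with Wnt7b) had 2 of 5 tested genes called higher, the antagonist Sfrp4 and the ligand Wnt4, and none lower (median 0.78). For this and the following lists the shares over all genes tested were 1.68% higher and 0.687% lower. Wnt4 had 10.6, 10.8 and 23.3 FPKM after FSH and FBS, against 1.60, 1.003 and 1.52 FPKM in untreated cells (log2 fold change 2.80, SE 0.44, limma adjusted p = 0.020, and 0.067 after scaling by the median of ratios). The TGF-beta and BMP list (31, with Chrd, and with Bmp2 listed only in untreated cells) had 1 of 16 higher, Bmp6 (log2 fold change 2.24), and none lower (median 0.43). The growth factor list (36 genes, with Fgf5 listed only in untreated cells) had 1 of 13 higher, the IGF-binding protein Igfbp4 (log2 fold change 2.38), and none lower (median 0.61). The list of cyclic AMP and gonadotropin response (26, with Prkg2) had none of 10 tested genes called higher and 1 lower, Gem, a small GTPase, which had 6.79, 5.83 and 3.58 FPKM after FSH and FBS, against 82.4, 80.0 and 47.0 FPKM in untreated cells (log2 fold change -3.44, SE 0.42, limma adjusted p = 0.0088). Its median was -0.10. Without untreated library 3 the calls of Bmp6, Igfbp4 and Spp1 were lost (adjusted p = 0.23, 0.23 and 0.38), and over all alternatives their adjusted p ran from 0.000128 to 0.227, from 0.00109 to 0.231 and from 1.15e-07 to 0.385. No member stood on the lists of cumulus expansion, steroid hormone, EGF-like, immediate early or cell cycle genes. These lists held 12 to 25 listed genes each, and the members were 1.04% of all genes listed. Their absence from such short lists is therefore not read as a result.

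Markers of other cells gave the setting of these libraries. In bulk RNA, fewer cells of a type and less RNA per cell cannot be told apart. Of 12 granulosa and cumulus markers 11 were listed, Foxl2 being unlisted; The list summed to 2445, 2463 and 1889 FPKM after FSH and FBS, against 997, 1192 and 1788 FPKM in untreated cells, with most of the sum from Hsd3b1, a steroid dehydrogenase (1904, 1907 and 1476 FPKM after FSH and FBS, against 487, 680 and 1174 FPKM in untreated cells). Of 9 tested granulosa markers none was called higher and 1 lower, against 1.68% higher and 0.687% lower of all genes tested. The lower one, Wt1, had 0.419, 0.145 and 0.0063 FPKM after FSH and FBS, against 8.04, 9.03 and 3.73 FPKM in untreated cells. Inha, the inhibin alpha chain, was lower in every FSH and FBS library (276, 282 and 279 FPKM, against 350, 360 and 502 FPKM in untreated cells) and Nr5a2, a nuclear receptor, higher (61.4, 61.0 and 47.6 FPKM after FSH and FBS, against 30.2, 24.3 and 22.1 FPKM in untreated cells), neither passing the test. Theca and stroma markers, Mfap5 among them, summed to 25.5, 23.8 and 27.2 FPKM after FSH and FBS, against 83.7, 81.8 and 65.9 FPKM in untreated cells. Acta2, smooth muscle actin, carried most of this difference, and without it the sums were 11.8, 9.28 and 9.76 FPKM after FSH and FBS, against 17.1, 14.1 and 7.59 FPKM in untreated cells, so that the groups overlapped. Surface epithelium markers summed to 151, 154 and 267 FPKM after FSH and FBS, against 30.6, 31.3 and 40.8 FPKM in untreated cells, with Krt8 and Krt18 called higher. Oocyte markers summed to 8.09, 7.75 and 32.3 FPKM after FSH and FBS, against 30.6, 34.7 and 38.1 FPKM in untreated cells, with 3, 3 and 9 of 25 listed after FSH and FBS, against 16, 15 and 13 in untreated cells. The 3 listed in FSH and FBS libraries 1 and 2 were Tle6 (5.56 and 4.62 FPKM), Kit (2.27 and 2.97 FPKM) and Gdf9 (0.260 and 0.157 FPKM). Tle6 and Kit were higher there than in every untreated library, and Gdf9 was lower. In FSH and FBS library 3, Gdf9 had 8.77 FPKM and H1foo, unlisted in libraries 1 and 2, had 5.62 FPKM. Leukocyte markers summed to 203, 204 and 340 FPKM after FSH and FBS, against 454, 9.11 and 473 FPKM in untreated cells. Cd79a carried most of each sum except in untreated library 2, where it added next to nothing. Without Cd79a the sums were 4.17, 3.44 and 7.19 FPKM after FSH and FBS, against 10.9, 9.11 and 13.3 FPKM in untreated cells. The reason for the gap of Cd79a between untreated libraries was not tested. The part of other cell types in the listing of epithelial genes among the 139, such as Dsg2 and Elf3, was not tested.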

How the data were processed

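RNA-seq libraries of cumulus cells, 3 given FSH and FBS and 3 untreated, were used as deposited; small-RNA libraries were not analysed here. The deposited tables give, per the file headers, the position, strand and FPKM of each transcript event. The submitters' processing notes name HISAT2 2.0.1; assembler, filters, strandedness and genome build are not given in the sources used here. No whole-read steps could be recovered from low values, so the depth is unknown and no counting interval is given.

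First-exon and last-exon FPKM were summed per gene on the strand with most signal, and the larger sum was the gene's value; 1 gene was left out by the rule. The 139 genes, the pathway lists, role groups and partners were chosen with earlier results of these data known. Named genes were the 30 with the highest lowest-library value apart from predicted genes and pseudogenes, all on a pathway or marker list, and the lowest 5. Added to these were the 5 of highest lowest FSH and FBS value among genes listed in exactly 1 untreated library. Up to 3 called genes per list holding a member were named too. Others named were chosen after their values were seen. A few of these are left out of the text. Motifs were searched in RefSeq promoters with Python 3.11.15 and pandas 2.3.3.

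The 9022 genes with a value in every library and a mean no lower than 1 FPKM were tested on log2(FPKM + 1), which understates fold changes at low levels, by limma 3.58.1 (R 4.3.3, trend on), p-values being adjusted by Benjamini-Hochberg and called under 0.05. Libraries 1 and 2 of a group were averaged, since they were far closer than other pairs; p-values measure only the spread between libraries, which may be technical. Checked on simulated data (10 runs, 9022 genes, 200 of them changed), the fit found 29% of 2-fold and 98.2% of 4-fold changes, with 3.89% false calls. The simulation gave every gene the same spread, drew all samples independently and added no shift common to all genes. These rates therefore need not hold for the libraries used here. Deviations from group means of same-numbered libraries correlated across genes (r = 0.32, 0.31 and 0.51 for numbers 1, 2 and 3), all over 0.1. A fit with a block was therefore run as well, called the replicate block. The block set the average of libraries 1 and 2 apart from library 3, and left fewer residual degrees of freedom than the fit reported. Libraries 1 and 2 correlated as much crosswise (0.31 and 0.33), so the pairing comes from the data and not from the labels. P-values of limma with the block are thus an alternative setting and do not replace those of the fit reported. Alternatives were the strand and event types counted, minimum levels, scalings, the pseudocount, filters, treating unlisted genes as 0, all libraries as separate replicates, the block, and leaving out each library; marker sums without Cd79a or Acta2 and the comparison at like level were added after seeing the data.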

Additional observations from a re-analysis of the deposited data

How the results depend on the processing

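The number of genes listed only after FSH and FBS was 139. It was 140 with either strand, 135 with any event type, 106 from first exons alone and 121 from last exons alone, but 77 with at least 0.5 FPKM and 41 with at least 1 FPKM in every FSH and FBS library. Leaving out 1 library gave 172 to 270, the highest without FSH and FBS library 3; for the 150 genes listed only in untreated cells the same change, chosen after seeing the data, gave 186 to 293, the highest without untreated library 3. Of 9022 genes tested, 152 were called higher and 62 lower. Counts were 50 higher and 41 lower after scaling by the median of ratios, 59 and 45 after scaling to equal sums, 42 and 21 from first exons alone, 973 and 350 with 6 libraries as separate replicates and 1040 and 407 with the replicate block. The share higher among calls was 71.0%, against 54.9% by the median of ratios, which took the median log2 fold change of 0.24 to 0.0050, and 56.7% with equal sums. With unlisted genes as 0, limma called 0 higher and 0 lower of 13318, although 1222 and 617 had an unadjusted p under 0.05; 1096 and 389 did in the fit reported. Leaving out 1 library gave 60 to 272 higher and 41 to 112 lower; without untreated library 3 it was 60 and 41, and without FSH and FBS library 3 it was 272 and 112. A pseudocount of 0.1, a mean of at least 5 FPKM and last exons alone left both counts within 1.5 times. Of 33 partner and list genes tested, the replicate block added 5 calls and lost none, while 6 calls were lost by the median of ratios (Ptgs2, Akr1b8, Igfbp4, Bmp6, Wnt4 and Spp1), 5 with equal sums (Ptgs2, Gpc1, Abcb1b, Bmp6 and Wnt4), 6 from first exons alone (Ptgs2, Akr1b8, Abcb1b, Igfbp4, Bmp6 and Wnt4), 6 without untreated library 3 and 16 with unlisted genes as 0. The log2 fold change of Prodh, 0.20, turned to -0.027 by the median of ratios and -0.061 with equal sums, and ran from -0.083 (without FSH and FBS library 3) to 0.41 when 1 library was left out; that of Sdc4 then ran from -0.12 to 0.62. Causes were not tested. The unknown depth limits what an unlisted gene shows. Genes of high value were also unlisted in some libraries of the same group. Rpl41 had 760.2 FPKM in untreated library 3 and was unlisted in untreated libraries 1 and 2. Bmp1 had 42.9 FPKM in untreated library 2 and was unlisted in untreated libraries 1 and 3. An unlisted gene is thus not shown to be low, and the reason for such gaps was not tested.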
